A study of Danio rerio with 13 samples.

Results

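The stable windows with few bound nucleotides are stretches of 10 kb on 1 strand of the zebrafish genome in which hnRNP A1 crosslinks were concentrated on fewer than 80 nucleotides and in which the share of crosslinks differed by less than 2-fold between embryos at genome activation (ZGA) and before it (preZGA). They were chosen from the measured values. A window was kept if it held at least 100 and under 1000 cDNAs of the hnRNP A1 pull-down over both stages, if the ratio of its ZGA share to its preZGA share, each out of the cDNAs listed for that stage, lay above 0.5 and below 2, and if fewer than 80 distinct nucleotides carried a site at either stage. The mitochondrial genome and chromosome 4 from 27.9 Mb were left out. Of 19341 windows with an hnRNP A1 site, 367 met the rule, with 24733 cDNAs at ZGA and 32156 at preZGA, or 5.14% and 5.51% of the listed cDNAs. The other 984 stable windows in the same cDNA range had 80 or more bound nucleotides.

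The study mapped the crosslink sites of hnRNP A1 by iCLIP in wild-type zebrafish embryos of the AB strain, all irradiated with UV light of 254 nm. The groups were hnRNP A1 at ZGA (1000 cells, n = 4), hnRNP A1 at preZGA (32 cells, n = 3), IgG at ZGA (n = 3) and IgG at preZGA (n = 3), where IgG is the negative control pull-down. The libraries were made from whole embryos, with no cell type separated. Each group was deposited as 1 table of uniquely mapped and 1 table of multi-mapping significant sites, both summed over its libraries. The spread between replicates could therefore not be seen, and neither tests nor p-values could be had. Intervals in brackets are exact 95% binomial intervals and cover counting error only.

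hnRNP A1 is an abundant RNA-binding protein that shuttles between nucleus and cytoplasm, favours single-stranded RNA with UAG, and is known for repressing splice sites and for handling mRNA and microRNA precursors. In iCLIP the cDNA usually stops at the crosslinked base, so a single binding site shows as a short run of neighbouring nucleotides. Before zygotic genome activation (ZGA) the embryo lives on RNA laid down by the mother, and afterwards its own transcripts are added. The study's question was how the RNA contacts of hnRNP A1 change over this transition, and these windows are those where the summed share stayed within 2-fold. Positions are on assembly Zv9. Windows are named by position, without genes or sequences, since no genome or annotation of this build was used here.

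The label "focal" held for a minority of the windows in the strict sense. All sites of a window lay within 100 nt in 29 of the 367 (7.90%, 5.36 to 11.1). In 180 windows the first and last sites lay 1000 nt or more apart. The median window held 63 bound nucleotides (lowest 5, highest 79) and 132 cDNAs (100 to 783) in 4 clusters, runs of sites at most 15 nt apart. Windows are therefore called here by their few bound nucleotides, and focal is kept for the shortest ones.

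**Figure D1:**
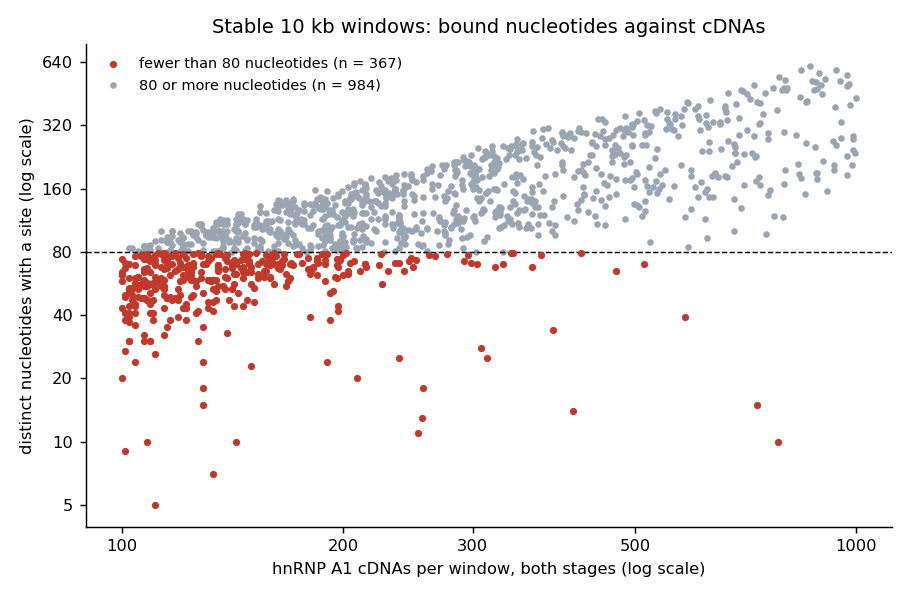
Distinct nucleotides with a site (y axis, log scale) against hnRNP A1 cDNAs over both stages (x axis, log scale) for each stable window; red points are the 367 windows below the cap of 80 nucleotides (dashed line), grey points the 984 at or above it. Most red points crowd the low end of both axes, and a small number stand far below the rest, down to 5 nucleotides.

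Much of what put a window below the cap was its low number of cDNAs. Of the 367 windows, 243 (66.2%) held fewer than 150 cDNAs. In that range 65.3% (60.2 to 70.2) of stable windows fell below the cap, against 30.5% from 150 to under 200 cDNAs, 12.1% from 200 to under 300 and 3.67% (2.15 to 5.81) at 300 or more. The cap cut through a continuous range, with 120 windows of 70 to 79 nucleotides inside it and 100 windows of 80 to 89 outside.

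The packing of the cDNAs follows from the cap and is given as a description. Reduced to 100 cDNAs, the median window occupied 51.9 nucleotides, against 77.6 in the windows of 80 or more, a number that restates the rule. The strongest stretch of 100 nt held a median of 63.6% of a window's cDNAs (16% to 100%), against 33.1%. Below 150 cDNAs the medians were 59.8% and 32.4%, and at 300 or more 98.1% and 30.4%. The single strongest nucleotide held a median of 6.73% (2.80% to 67.5%) of the cDNAs, against 3.23%, without adjustment for the number of cDNAs.

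The windows nearest each threshold were as follows. Just inside the cap, chromosome 7 plus at 56780001 to 56790000 had 79 nucleotides and 422 cDNAs, and just outside, chromosome 17 minus at 14580001 had 80 nucleotides and 106 cDNAs. At the upper cDNA limit the highest window inside held 783, and the lowest outside, chromosome 3 plus at 60260001, held 800 cDNAs at ZGA and 604 at preZGA on only 20 nucleotides. The lowest ratios inside were 0.504 and 0.507, and those just outside 0.4998 and 0.497. The highest inside were 1.99 and 1.94, and those outside 2.01 and 2.02. The window at 2.02, chromosome 1 minus at 10970001, had 7 bound nucleotides with 123 cDNAs at ZGA and 74 at preZGA.

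The windows with the most cDNAs held both narrow and wide footprints. Chromosome 18 plus at 46510001 to 46520000 led with 456 cDNAs at ZGA and 327 at preZGA, all on 10 nucleotides between 46513847 and 46513867. Nucleotide 46513863 was the strongest at both stages, with 116 and 79 cDNAs, and its 3 neighbours on the 5′ side carried 60 to 82 at ZGA and 59 to 72 at preZGA. The profile stopped within 4 nt on the 3′ side. Nucleotide 46513864 had 22 cDNAs at ZGA against 4 at preZGA, while the other strong positions differed less between the stages. IgG gave 3 cDNAs in this window at ZGA and 7 at preZGA, or 0.658% and 2.14% of the hnRNP A1 number, and no multi-mapping cDNA was listed.

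Chromosome 6 minus at 55290001 to 55300000 held 455 cDNAs at ZGA and 278 at preZGA on a run of 15 nucleotides, 55297150 to 55297164. Its strongest nucleotide was 55297150 at ZGA (76 cDNAs, against 22 at preZGA) and 55297156 at preZGA, where ZGA had 74 cDNAs and preZGA 51. On this minus-strand window the ZGA maximum thus lay 6 nt further 3′. No unique IgG site was listed in the window at either stage. Chromosome 16 plus at 55640001 to 55650000 had a footprint of the same length but another form, a ramp over 15 nt that ended on its strongest nucleotide, 55640655, with 79 cDNAs at ZGA and 41 at preZGA out of 252 and 159. Both forms are those of the uniquely mapped cDNAs. In both windows multi-mapping cDNAs continued 3′ of the last unique base, as given below, so the 3′ edges may not be those of the binding. On chromosome 6 they lay on the next base alone, and on chromosome 16 nearly all lay at 55640656 to 55640658.

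Chromosome 23 plus at 19440001 to 19450000 had a pair of peaks on 1 footprint of 50 nt, with 319 cDNAs at ZGA and 265 at preZGA. The main peak at 19442645 and 19442646 was alike, with 58 and 71 cDNAs at ZGA against 63 and 83 at preZGA. The second peak, 24 nt further 3′ at 19442670, had 42 cDNAs at ZGA and 5 at preZGA, and its neighbour 19442669 had 22 and 3. Nucleotide 19442670 was also the last site listed in the window on the 3′ side. A window counted as stable could therefore hold positions with different values at the 2 stages. IgG in this window numbered 10 cDNAs at ZGA and 2 at preZGA, of which nucleotide 19442670 had 2 at ZGA and none at preZGA. Their part in the difference was not tested.

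Most of the remaining leading windows had wider footprints. Chromosome 8 plus at 26150001 had 193 cDNAs at ZGA and 320 at preZGA on 70 nucleotides, 99.2% of them within 100 nt, with no single dominant base and no unique IgG site. Chromosome 13 minus at 690001 had 265 and 206 on 65 nucleotides, with the same strongest nucleotide, 697677, at both stages (18 and 22 cDNAs). Nucleotide 697715, on its 5′ side, had 10 cDNAs at ZGA and none at preZGA. Chromosome 7 plus at 56780001 had 137 and 285, led at both stages by 56781790 (20 and 48). Further 3′ in this window, sites from 56781889 to 56781955 were listed at preZGA alone and those from 56781964 to 56781988 at ZGA alone. Chromosome 21 plus at 300001 had 224 and 162 on 34 nucleotides, of which 31 carried a site at both stages. IgG had 5 unique cDNAs there at ZGA and none at preZGA. The last members of the 10 leading ones were chromosome 9 minus at 12920001 (163 and 209 cDNAs) and chromosome 10 minus at 42190001 (161 and 201). In the window at 12920001 the strongest nucleotides of the stages lay 615 nt apart, 12925033 with 11 cDNAs at ZGA and 12925648 with 17 at preZGA. The strongest 100 nt stretches of the stages began only 6 nt apart there. The stretch strongest over both stages, from 12925641, held 36.2% of the ZGA cDNAs and 60.8% of the preZGA cDNAs. The strongest ZGA base lay outside it.

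**Figure D2:**
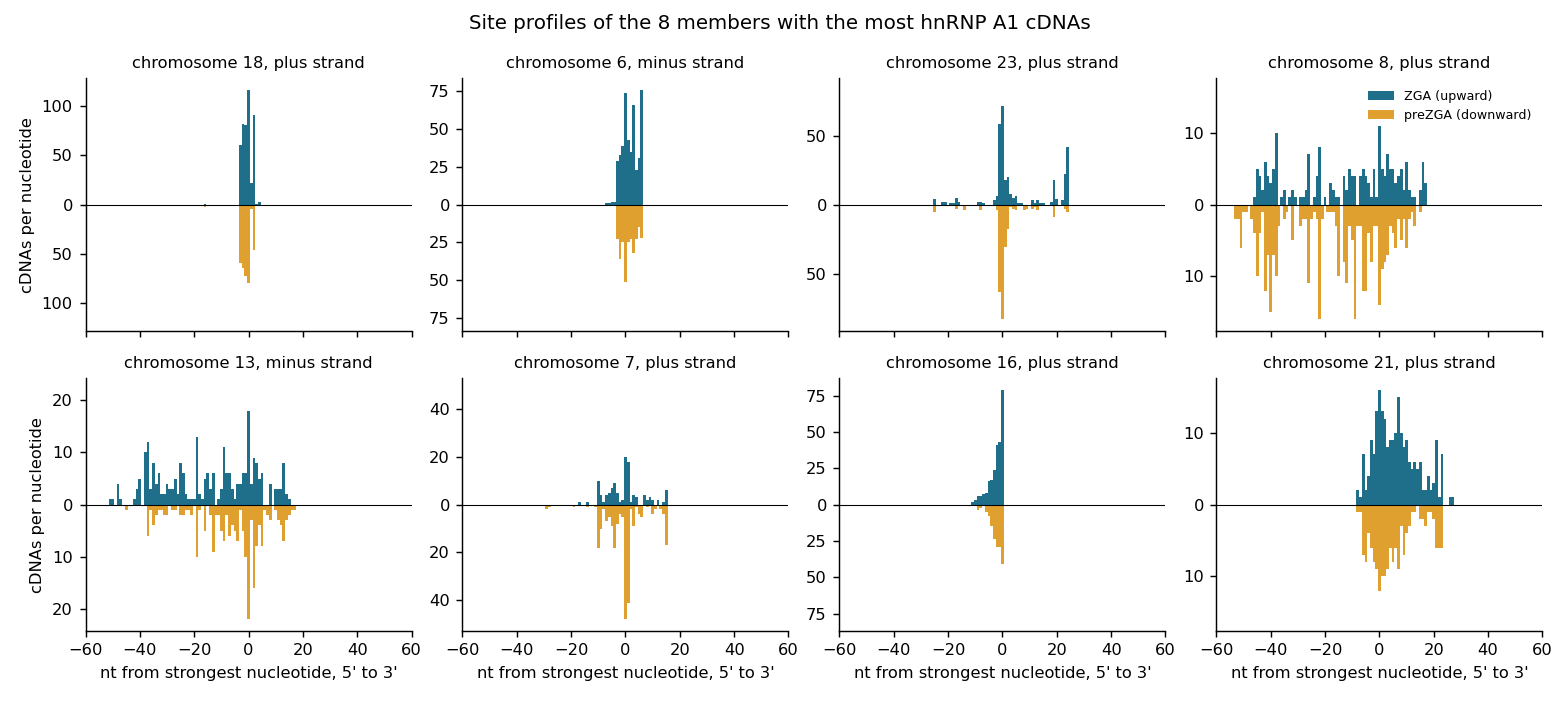
cDNAs per nucleotide (y axis) at ZGA (blue, upward) and preZGA (yellow, downward) against the distance in nt from the strongest nucleotide of the window, in transcript direction, for the 8 windows with the most cDNAs; sites more than 60 nt away are not drawn. Within the part drawn the main peaks of the stages are mostly alike in outline, but some parts differ. ZGA has added signal 24 nt 3′ of the main peak on chromosome 23. The same holds 38 nt 5′ of the strongest nucleotide on chromosome 13 and 6 nt 3′ of it on chromosome 6. On chromosome 8 the sites 53 to 47 nt 5′ of the strongest nucleotide are listed at preZGA alone. The uniquely mapped cDNAs end in a sharp 3′ edge on chromosomes 18, 6 and 16, and at ZGA on chromosome 23. On chromosomes 6 and 16 multi-mapping cDNAs, not drawn here, continue past this edge, mostly by a few nt.

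A group of 15 windows had at most 20 bound nucleotides. In 12 of them every site lay in 1 run of 5 to 31 nt, while in the others the sites were spread over up to 7605 nt. Together they held 2165 cDNAs at ZGA and 1691 at preZGA, 6.78% of the cDNAs of all 367 windows. The smallest, chromosome 10 plus at 31430001 to 31440000, held 62 cDNAs at ZGA and 49 at preZGA on the 5 consecutive nucleotides 31433764 to 31433768. Each of the 5 was bound at both stages, and the middle base had 29 and 12 cDNAs. Chromosome 6 minus at 45320001 had 78 and 55 cDNAs on 7 nucleotides. Chromosome 5 minus at 70780001 had 49 and 52 on 9, with the same strongest base, 70782730, at both stages (18 and 17). Chromosome 16 minus at 52310001 had 62 and 46 on 10 consecutive bases, all of them bound at both stages. None of these 4 windows held a unique IgG site.

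The windows with at most 20 bound nucleotides had higher stage ratios than the wider classes. Among the 15 windows the ratio ran from 0.650 to 1.99 with a median of 1.54, and it was above 1 in 14. Summed over them it was 1.55 (1.46 to 1.66), an interval that leaves out the spread between windows. The sum is weighted by cDNAs, and the windows at 46510001, 55290001 and 55640001 alone held 456, 455 and 252 at ZGA and 327, 278 and 159 at preZGA. The medians were 0.914 for the 32 windows of 21 to 40 nucleotides, 0.875 for the 121 of 41 to 60 and 0.843 for those of 61 to 79. Both measures were bounded by the rule that chose the windows, so these values carry no test. The 1 window of the 15 with a ratio below 1 was chromosome 20 minus at 24360001, with 45 cDNAs at ZGA and 84 at preZGA on 15 nucleotides. It was named after its values were seen. An IgG site was listed in 6 of the 15 (40%, 16.3 to 67.7), against 18.8%, 5.79% and 7.54% of the wider classes in the same order, and the part of IgG background in the ratio was not tested. The 4 windows with the fewest nucleotides, all without a unique IgG site, had ratios of 1.54 (1.04 to 2.28) at 31430001, 1.72 (1.20 to 2.48) at 45320001, 1.14 (0.758 to 1.72) at 70780001 and 1.64 (1.099 to 2.45) at 52310001. The interval covered 1 in the window at 70780001 and lay above 1 in the others.

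**Figure D3:**
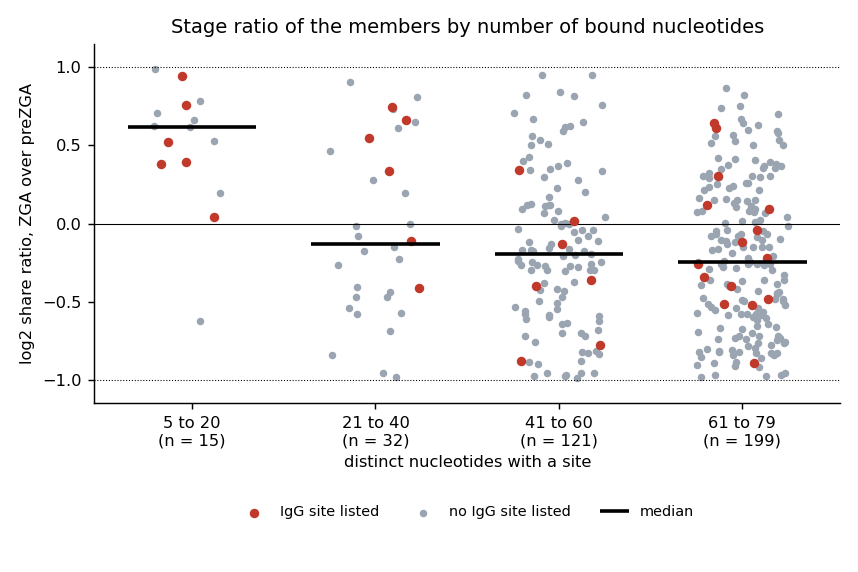
The log2 share ratio, ZGA over preZGA (y axis), of each of the 367 windows in 4 classes of bound nucleotides (x axis); red points are windows with a unique IgG site at either stage, black bars the class medians and dotted lines the bounds of 2-fold set by the rule. All but 1 of the 15 windows with 5 to 20 nucleotides lie above 0, while the medians of the wider classes lie below it.

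Over all 367 windows the share ratio was 0.934 (0.918 to 0.949), with a median of 0.885 per window (0.504 to 1.99). The summed ratio passed 1 in 4 alternative settings. It was 1.05 (1.03 to 1.07) when scaled to the median window and 1.05 (1.02 to 1.09) with a minimum of 200 cDNAs. It was 1.01 (0.987 to 1.04) with a cap of 60 nucleotides and 1.00 (0.988 to 1.02) without sites near IgG. The intervals of these last settings cover 1. Scaling divides by the median ratio and leaving out sites changes the stage totals, so those ratios have another reference. The direction of the summed ratio is thus not settled. Of all 1882 windows with at least 100 cDNAs, the ratio was 2-fold or more higher in 8.77% and lower in 15.2%, or 24% in either direction, and the rule leaves these out. The interval of the ratio lay above 1 in 52 of the 367 windows, beside 14.7% of all windows compared, and below 1 in 101, beside 48.5%. It covered 1 in the other 214, while 63.2% of all windows compared had an interval that excluded 1. These counts follow in part from the bounds on the ratio and from the low cDNA numbers and are given as a description.

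The highest ratios were 1.99 (1.71 to 2.31) and 1.92 (1.57 to 2.36) for the short footprints on chromosome 6 minus at 55290001 and chromosome 16 plus at 55640001. Between them in order came chromosome 7 plus at 13750001, with 67 cDNAs at ZGA and 42 at preZGA and a ratio of 1.94 (1.30 to 2.92), and chromosome 19 minus at 12820001, with 70 and 44 and a ratio of 1.93 (1.31 to 2.88). Chromosome 17 plus at 33630001 followed with 65 and 42. The 5 intervals overlap, so their order is not resolved. The window at 55640001 held 6 unique IgG cDNAs at ZGA and none at preZGA, and their part in its ratio was not tested. No unique IgG site was listed in the others.

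The lowest ratios lay just above the lower bound of the rule. Chromosome 1 plus at 36620001 had 32 cDNAs at ZGA and 77 at preZGA, a ratio of 0.504 (0.323 to 0.771), over 56 nucleotides. Chromosome 21 minus at 26660001 had 43 and 103, chromosome 17 plus at 23910001 had 38 and 91, chromosome 21 plus at 25920001 had 31 and 74, and chromosome 23 minus at 36490001 had 44 and 105. None of the 5 held a unique IgG site at either stage. In the window at 23910001 the strongest bases of the stages were neighbours, 23910053 at ZGA and 23910054 at preZGA, while in the window at 36490001 they lay 425 nt apart. In the latter window the strongest ZGA base held 5 cDNAs, and the strongest 100 nt stretches of the stages began at the same nucleotide. That stretch held 95.5% of the ZGA cDNAs but only 38.1% of the preZGA cDNAs.

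The positions bound at the 2 stages coincided more often than in the other stable windows. The cap on distinct nucleotides over both stages favours this by construction, so the values are a description. Of 21607 nucleotides with a site, 5554 (25.7%, 25.1 to 26.3) carried one at both stages, against 20.2% (20.05 to 20.4) in the windows of 80 or more nucleotides. They made up 47.0% of the nucleotides bound at ZGA and 36.2% of those at preZGA. These shared nucleotides held 61.3% of the ZGA cDNAs and 51.2% of the preZGA cDNAs, with means of 2.73 and 2.96 cDNAs. The 6252 nucleotides listed at ZGA alone had a mean of 1.53 cDNAs and the 9801 listed at preZGA alone a mean of 1.60. A single cDNA stood behind 67.6% and 64.5% of them, so at this depth a nucleotide listed at 1 stage is not shown to be unbound at the other.

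The difference from the other stable windows was present in each class of cDNA number. Below 150 cDNAs the percentage of nucleotides bound at both stages was 22.1% (21.4 to 22.8), against 10.1% (9.62 to 10.7) in the windows of 80 or more. At 300 or more it was 51.9% (48.6 to 55.2), against 23.3% (23.0 to 23.5). Because fewer distinct nucleotides at a given number of cDNAs makes coincidence more likely by construction, the cap contributes to this difference, and how much was not tested.

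The strongest nucleotide of each stage was also compared, and the cap on nucleotides bears on its position too, to a degree that was not tested. Each stage on its own gave a strongest nucleotide, and both fell within 15 nt of each other in 183 windows (49.9%, 44.6 to 55.1), of which 62 had the identical base. In 30 windows they lay more than 1000 nt apart. In the windows of 80 or more nucleotides the strongest bases lay within 15 nt in 28.6% (25.8 to 31.5). Below 150 cDNAs the percentages were 46.5% (40.1 to 53.0) and 13.2% (7.87 to 20.3). The strongest 100 nt stretches of the stages overlapped in 79.3% (74.8 to 83.3) of the windows, against 69.0% (66.0 to 71.9). In the 15 windows with at most 20 bound nucleotides the strongest bases of the stages all lay within 15 nt of each other, and 7 were identical. In 12 of these windows every site lay in 1 run of 5 to 31 nt, so this closeness was largely set in advance.

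**Figure D4:**
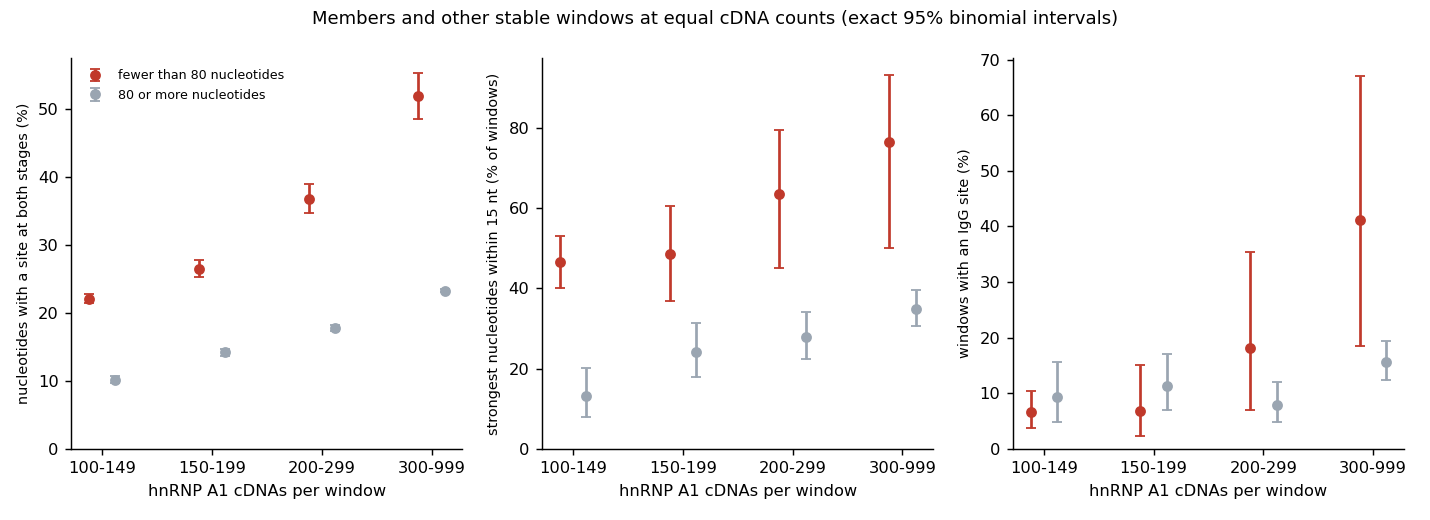
Percentages with exact 95% binomial intervals (y axes) in 4 classes of cDNAs per window (x axes) for the windows below the cap (red) and the other stable windows (grey): nucleotides bound at both stages, windows whose strongest nucleotides at the stages lie within 15 nt, and windows with an IgG site. The red points lie above the grey ones in every class of the first 2 panels, while in the third the intervals overlap in all 4 classes.

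Of the windows leading by percentage on 1 base, only the first and second placed most of their cDNAs there. Chromosome 3 minus at 39040001 to 39050000 had 95 of its 160 ZGA cDNAs and 117 of its 154 preZGA cDNAs on nucleotide 39041421, or 67.5% over both stages. IgG had 4 unique cDNAs in this window at ZGA and 2 at preZGA. Chromosome 7 minus at 62480001 had 84 of 133 and 69 of 123 on nucleotide 62488506, or 59.8%. For the next windows the value was 36.9% on chromosome 10 plus at 31430001 and 34.7% on chromosome 5 minus at 70780001. The fifth was chromosome 8 plus at 37690001, with 32.7% of its cDNAs on nucleotide 37693731, none of them at ZGA and all 34 at preZGA.

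IgG signal was listed in a minority of these windows. A unique IgG site was listed at either stage in 34 of the 367 (9.26%, 6.50 to 12.7), beside 16.8% of all windows with at least 100 cDNAs and 12.2% (10.2 to 14.4) of the stable windows with 80 or more nucleotides. These sets were not matched for cDNA number, and 66.2% of the 367 windows held fewer than 150 cDNAs. Below 150 cDNAs the values were 6.58% (3.81 to 10.5) and, with 80 or more nucleotides, 9.30% (4.90 to 15.7). From 150 to under 200 they were 6.76% and 11.2%, and from 200 to under 300 the order was reversed, 18.2% and 7.92%. In every class of cDNA number the intervals overlapped, so a lower IgG background is not shown. The 34 windows comprised 21 with an IgG site at ZGA and 20 at preZGA, 7 of them at both. IgG cDNAs numbered 119 at ZGA and 85 at preZGA, so hnRNP A1 cDNAs were 208-fold and 378-fold more numerous. These folds are not adjusted for the smaller IgG totals. The windows held 0.587% of the listed IgG cDNAs at ZGA and 0.885% at preZGA. Set against the hnRNP A1 shares given at the start, the folds were far smaller and the larger was at ZGA. Over all unique sites IgG had 20262 cDNAs at ZGA and 9606 at preZGA, against 480927 and 583691 for hnRNP A1. Among the 17 windows with 300 or more cDNAs, 7 had an IgG site (41.2%, 18.4 to 67.1), against 15.7% (12.4 to 19.4) of the other stable windows of that size. The summed ratio of the 34 windows was 1.17 (1.11 to 1.22), and that of the 333 without IgG sites 0.902 (0.886 to 0.918).

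The window with the most IgG cDNAs was chromosome 8 plus at 37690001 to 37700000, where hnRNP A1 had 45 cDNAs at ZGA and 59 at preZGA and IgG had 29 and 10. IgG thus reached 64.4% of the hnRNP A1 number at ZGA and 16.9% at preZGA. Its sum was stable, with a ratio of 0.926 (0.614 to 1.39), but its positions were not alike. Only 2 of its 36 nucleotides were listed at both stages. Nucleotide 37693731, where hnRNP A1 had no cDNA at ZGA and 34 at preZGA, had 8 IgG cDNAs at ZGA and 2 at preZGA. The strongest base at ZGA, 37693775, had 7 cDNAs, against 1 at preZGA.

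Chromosome 7 minus at 62480001 had 27 IgG cDNAs at ZGA and 7 at preZGA, or 20.3% and 5.69% of its hnRNP A1 number. Of these, 10 and 4 lay on its dominant base 62488506, the same position that led the hnRNP A1 profile. In the window at 690001 on chromosome 13 the IgG signal was at preZGA alone, with 12 cDNAs. Chromosome 23 plus at 19440001 and chromosome 18 plus at 46510001, described above, completed the 5 leading IgG windows.

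Multi-mapping cDNAs, which fit several genomic places and are divided among them, bordered several of the windows with few bound nucleotides. A multi-mapping hnRNP A1 site lay in 274 of the 367 windows (74.7%, 69.9 to 79.03), beside 62.9% of all windows compared and 61.3% (58.2 to 64.3) of the stable windows with 80 or more nucleotides. Most carried little: 30 windows held at least 5 such cDNAs over both stages. Over all 367 windows they summed to 1044 at ZGA and 719 at preZGA, or 4.22% and 2.23% of the unique cDNAs.

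In several of these places the unique sites ended and multi-mapping sites continued on the 3′ side. On chromosome 16 plus at 55640001 no unique site was listed 3′ of the strongest base 55640655, whereas the next 50 nt held 47.8 multi-mapping cDNAs at ZGA and 24.7 at preZGA, and the 50 nt 5′ of the footprint held none. The footprint itself held 50.5 multi-mapping cDNAs at ZGA and 31.1 at preZGA. Nearly all of those on the 3′ side lay at 55640656 to 55640658. Base 55640658 had 18.6 at ZGA, and the next base had 0.0588. On chromosome 6 minus at 55290001 the unique run ended at 55297150, and 46.5 multi-mapping cDNAs at ZGA and 15.8 at preZGA followed 3′ of it, all on the next base, 55297149. Chromosome 17 plus at 4360001 showed 39.3 and 35.96 beyond its 13 nt run, and chromosome 10 plus at 31430001 showed 20.9 and 20.97 beyond its 5 nt run. Chromosome 7 plus at 5510001 held the most multi-mapping cDNAs, with 138.5 at ZGA and 58 at preZGA beside 91 and 147 unique ones. Of these multi-mapping cDNAs, 110 and 52.5 lay within the span of the unique sites and the rest 3′ of it. Of the 30 windows, 13 had more multi-mapping cDNAs in the 50 nt 3′ of the unique sites of the strongest stretch than in the 50 nt 5′, 5 had more on the 5′ side, and 12 had none on either side. Chromosome 21 plus at 300001 was among the 5, with 21.3 multi-mapping cDNAs at ZGA and 11.5 at preZGA on the 5′ side, and 1.32 and 0.110 on the 3′ side. The short footprint of such a window is thus that of the uniquely mapped cDNAs, and these alone do not settle its full extent. Whether the multi-mapping cDNAs beside it came from the same place was not tested.

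**Figure D5:**
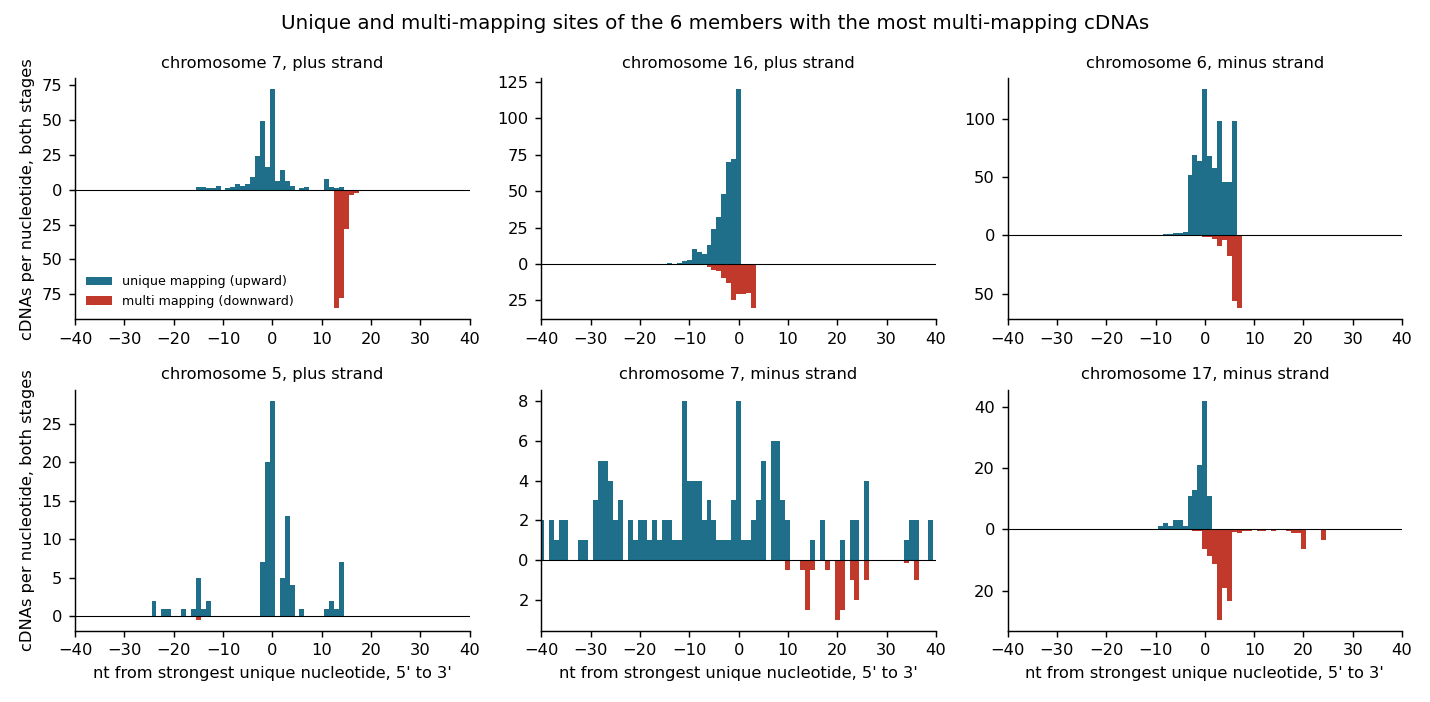
cDNAs per nucleotide summed over both stages (y axis), uniquely mapped (blue, upward) and multi-mapping (red, downward), against the distance in nt from the strongest unique nucleotide in transcript direction, for the 6 windows with the most multi-mapping cDNAs, of which those within 40 nt are drawn. On chromosomes 16, 6 and 17 the red bars begin under the blue ones and continue past their 3′ edge. The same holds on chromosome 7 plus, where the red bars lie 13 to 17 nt 3′ of the strongest unique nucleotide. On chromosome 5 nearly all multi-mapping cDNAs lay outside the part drawn.

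Other windows with short footprints had no such neighbour. Chromosome 18 plus at 46510001, chromosome 23 plus at 19440001, chromosome 3 minus at 39040001, chromosome 5 minus at 70780001, chromosome 6 minus at 45320001 and chromosome 16 minus at 52310001 held no multi-mapping hnRNP A1 cDNA at either stage. Their narrow profiles therefore do not border on listed multi-mapping sites. The other windows among the 5 richest in multi-mapping cDNAs were chromosome 5 plus at 54180001, with 85.7 at ZGA and 43.6 at preZGA, and chromosome 7 minus at 76810001, with 77.6 and 40.8.

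The windows were spread over all 25 chromosomes and both strands, 178 on the plus and 189 on the minus strand. Chromosome 7 held 36, chromosome 3 held 23 and chromosome 18 held 7. As a share of the stable windows of a chromosome they made up between 15.6% (6.49 to 29.5) on chromosome 18 and 38.1% (18.1 to 61.6) on chromosome 4, and these intervals overlap. A well-bound neighbour was infrequent: 49 windows (13.4%, 10.04 to 17.3) had a neighbouring window of the same strand with at least 100 cDNAs, against 14.6% (12.5 to 17.0) of the windows with 80 or more nucleotides. In 163 no cDNA was listed in either neighbour. Members in adjacent windows formed 5 pairs.

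Binding on the opposite strand of the same window was likewise infrequent, in 38 windows (10.4%, 7.43 to 13.9) against 10.5% of the other stable windows. In 1 place both strands met the rule. Chromosome 3 at 7220001 to 7230000 held 68 cDNAs at ZGA and 47 at preZGA on the plus strand between 7228706 and 7228864, and 137 and 116 on the minus strand between 7228874 and 7228884. The facing edges of the footprints were 10 nt apart. The ratios were 1.76 (1.19 to 2.60) on the plus strand and 1.43 (1.11 to 1.85) on the minus strand, so both intervals lay above 1. The plus-strand window was named after its values were seen.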

How the data were processed

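The deposited tables give a signed cDNA count per nucleotide, a unit other than a plain count because the sign is the strand, per the file headers and deposited values. The absolute value was used. Per the file headers, the authors listed sites at a false discovery rate of 0.01 with 100 permutations and a neighbourhood of 15 nt on summed replicates (Zv9, Ensembl release 72). CASAVA 1.4 is named in the submitters' processing notes. Aligner and duplicate removal were not given in the sources used here. The 26 files are 8 distinct tables, and copies were counted once. Totals of listed cDNAs (480927 at ZGA and 583691 at preZGA for hnRNP A1, unique mapping) are not library depths. The labels speak of 3 summed replicates, while the hnRNP A1 table at ZGA names 4 libraries in its header.

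Nucleotides were joined by position and strand and summed per window. Ratios of shares have exact conditional binomial intervals. The reduction to 100 cDNAs is the expected number of distinct nucleotides in draws without replacement. The strongest stretch is the 100 nt with the most cDNAs. The interval and stretch code was tested on simulated data. Named were the 10 windows with the most cDNAs, the 10 with the fewest nucleotides, the 5 highest and 5 lowest ratios, and the 5 leading by percentage on 1 base, by IgG and by multi-mapping cDNAs, plus those at the thresholds. The members and this rule were chosen with earlier results of these data known. Alternatives changed the cap, the cDNA minimum, the ratio bounds and scaling, the windows, the stretch, the tolerance and the treatment of IgG and multi-mapping sites. Calculations ran under Python 3.11.15 with scipy 1.17.1, pandas 2.3.3 and numpy 2.4.6, and figures were drawn with matplotlib 3.10.9.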

Additional observations from a re-analysis of the deposited data

How the results depend on the processing

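The cap and the cDNA minimum set most of what describes these windows. A cap of 60 nucleotides left 158 windows with a summed ratio of 1.01, a median of 80% of cDNAs in the strongest stretch, 31.3% of nucleotides bound at both stages and overlapping stretches in 87.3%. A cap of 100 gave 563 windows, 0.909, 55.6% and 23.0%. A minimum of 200 cDNAs left 50 windows with 1.05, 84.8%, 41.3% and 98%, an IgG site in 26% and a multi-mapping site in 80%. Sites of at least 2 cDNAs gave 0.837, 52.9% and 21.1%, with IgG in 13.5%. The summed ratio of 0.934 crossed 1 in 4 settings, and the cause was not tested. With the cap of 60 (1.01, 0.987 to 1.04) and without sites within 15 nt of IgG (1.00, 0.988 to 1.02) the interval covered 1. The others were the minimum of 200 and scaling to the median window (1.05). The summed ratio was 0.957 with ratio bounds of 2/3 and 1.5. It was 0.902 without windows holding IgG and 0.899 without those of at most 20 nucleotides, both settings chosen after seeing the data. The percentage of nucleotides bound at both stages was 25.1% with scaling, 26.5% with a shifted grid, 26.9% with 5 kb windows, 24.7% without sites near IgG and 26.6% with multi mapping added. Allowing 1 or 5 nt raised it to 47.3% and 63.2%. Stretches of 50 nt gave 55.7% of cDNAs and 72.8% overlapping, and 200 nt gave 74.2% and 86.4%. Multi-mapping sites lay in 66.1% of 5 kb windows, and in 8.17% of windows when 5 cDNAs were asked for. The other 65 values moved by less than their intervals or, for numbers of windows, by less than 1.5 times. No paired analysis was possible because each group was given only in pooled form, and for the same reason no replicate could be left out.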
